A study of Mus musculus with 39 samples.

Results

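Wnt3a was compared with control after 3 days of culture of mouse ESCs, on 6 of the 39 miRNA arrays of the series: 3 arrays labelled Wnt3a day 3 and 3 labelled control day 3. The study asked how Wnt3a and Activin A, growth factors used to direct mouse ESCs (the TCL-1 line) towards definitive endoderm, alter miRNA levels. Wnt3a cells received 50 ng/ml Wnt3a, and control cells the same serum-free RPMI medium with B27 and, as the labels spell it, sodium butyrate, without either growth factor. Cells of both groups had been grown on feeders with LIF, were freed of feeders by a passage on gelatin and were seeded on collagen the day before. Activin A at 100 ng/ml, alone or with 50 ng/ml Wnt3a, gave the other day 3 groups, and each of the 4 day 3 groups had 3 arrays. The labels do not say whether the arrays of a group came from separate cultures, so p-values measure the spread between these samples, which may be technical.

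Each array had 1 colour and carried probes for 611 mouse miRNAs. The scanner software detected at most 296 of them on a control array and 303 on a Wnt3a array. Control replicate 2 had the fewest, 250, and several miRNAs were undetected on that control array alone. Median local background was 36, 40 and 39 intensity units on the control arrays and 38, 38 and 39.5 on the Wnt3a arrays, with 0 saturated spots. The 3 Wnt3a arrays and control replicates 2 and 3 were on 1 slide, and control replicate 1 was on another. Over the 250 miRNAs detected on all 6 arrays, the root mean square log2 difference was 0.18 to 0.19 between Wnt3a arrays, 0.28 to 0.39 between control arrays and 0.40 to 0.46 between a control and a Wnt3a array. Levels below are log2 of the quantile normalized signal, in which an undetected miRNA stands at the floor of 1.

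Wnt3a is a secreted ligand that binds Frizzled and LRP receptors, stabilizes beta-catenin and so lets it act with TCF factors on transcription. In mouse ESCs this pathway is known for favouring self-renewal, and in the embryo for posterior patterning and mesendoderm formation. MiRNAs report such states through clusters transcribed together. The miR-290 to miR-295 cluster is a hallmark of naive mouse ESCs, the miR-302/miR-367 cluster of later, epiblast-like pluripotent cells, and miR-10a, miR-10b, miR-196a and miR-196b lie within the Hox gene clusters. The large Dlk1-Dio3 cluster is expressed from the maternal chromosome, and the miR-297, miR-466, miR-467 and miR-669 genes are repeated copies within an intron of Sfmbt2, a gene expressed from the paternal chromosome.

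Mature sequences of the miRNAs on which the comparison turns are shown 5′ to 3′ from RefSeq, with the seed (bases 2 to 8), the main determinant of target choice, in capitals. Of 26 names looked for, 20 were found. The first 5 share 1 seed, although 3 belong to the miR-290 to miR-295 cluster and 2 to the miR-302/miR-367 cluster, whose levels moved in opposite directions after Wnt3a.
miR-291a-3p: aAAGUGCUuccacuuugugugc
miR-294-3p: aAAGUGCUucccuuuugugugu
miR-295-3p: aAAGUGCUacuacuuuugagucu
miR-302b-3p: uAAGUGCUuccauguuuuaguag
miR-302d-3p: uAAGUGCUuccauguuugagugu
The next 3 are cluster members with other seeds, of which miR-302c-3p holds the letters of the shared seed 1 base nearer its start in the annotated form.
miR-302c-3p: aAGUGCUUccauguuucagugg
miR-290a-3p: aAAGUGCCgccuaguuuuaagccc
miR-293-3p: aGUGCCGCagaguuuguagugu
A further 3, from the opposite arm of the miR-290 to miR-295 hairpins, share another seed. MiR-293-5p is the arm named miR-293* on the array.
miR-290a-5p: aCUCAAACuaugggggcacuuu
miR-292a-5p: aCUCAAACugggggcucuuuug
miR-293-5p: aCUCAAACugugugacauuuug
The miRNAs of the Hox clusters that rose are shown last. MiR-10a-5p and miR-10b-5p share a seed and differ by U12A, counted from the 5′ end of miR-10a-5p.
miR-10a-5p: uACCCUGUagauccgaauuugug
miR-10b-5p: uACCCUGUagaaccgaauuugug
miR-196b-5p: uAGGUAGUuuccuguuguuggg
In build GRCm38.p6, miR-294-3p lies at chr7:3220691-3220712 on the plus strand, within the annotated span of D7Ertd143e, and miR-302b-3p at chr3:127545275-127545297 on the plus strand, within that of Larp7. MiR-10a-5p lies at chr11:96317186-96317208 within the span of Hoxb3, miR-10b-5p at chr2:74726074-74726096 within those of Hoxd3 and Hoxd4, both on the plus strand, and miR-196b-5p at chr6:52230129-52230150 on the minus strand. MiR-302a-3p, miR-292a-3p, miR-375-3p, miR-150-5p, miR-297c-5p and miR-669f-3p are named only.

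Wnt3a shifted many miRNAs by small amounts and few by large ones. Of 319 miRNAs tested with limma over the 12 day 3 arrays, 112 (35.1%) had an adjusted p under 0.05, 51 of them higher (16%) and 61 lower (19.1%) in Wnt3a. For 149 (46.7%) the 3 arrays of 1 group all lay on the same side of the 3 of the other, higher in Wnt3a for 65 (20.4%) and lower for 84 (26.3%). With undetected arrays set to the floor, 10 of the 112 (3.13% of those tested) also passed a 2-fold threshold, all higher. For 5 of the 10 all control arrays were undetected, so that the threshold was met through the floor and no fold was measured. Among these only miR-297c has a lower bound above 2-fold, given below. No tested miRNA was more than 2-fold lower, the lowest log2 difference being −0.97, for miR-878-3p. With quantile normalization of log2 signals 6 were both past 2-fold lower and past the test, miR-302a* (−1.43) and miR-452 (−1.28) among them, and 2 were in the table normalized by the authors. MiR-878-3p was also called with a signal floor of 1 and with the floor set before scaling. With 75th percentile scaling it was at −1.04 and did not pass (adjusted p = 0.0648). The median log2 difference of all 319 was −0.01. The balance of increases and decreases depends on scaling: 53 rose and 48 fell when arrays were scaled by the 75th percentile of miRNAs that all arrays detect, 44 and 110 with the percentile over all miRNAs (all-tested median −0.10), 50 and 4 with no scaling (median 0.21, a shift to keep in mind for every unscaled value below), 7 and 5 after normexp background correction with local backgrounds, and 58 and 47 after normexp with the median background of each array. On the shared slide alone 39 rose and 32 fell, and with slide as a block 51 and 54. Control replicate 1 was the only day 3 array on its slide, so at day 3 the block amounts to leaving that array out. The block and the fit without that array are therefore not separate checks. Without Wnt3a replicate 3, 44 rose and 33 fell. RNA came from whole cultures, in which fewer cells of a type and less RNA per cell cannot be told apart.

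**Figure D1:**
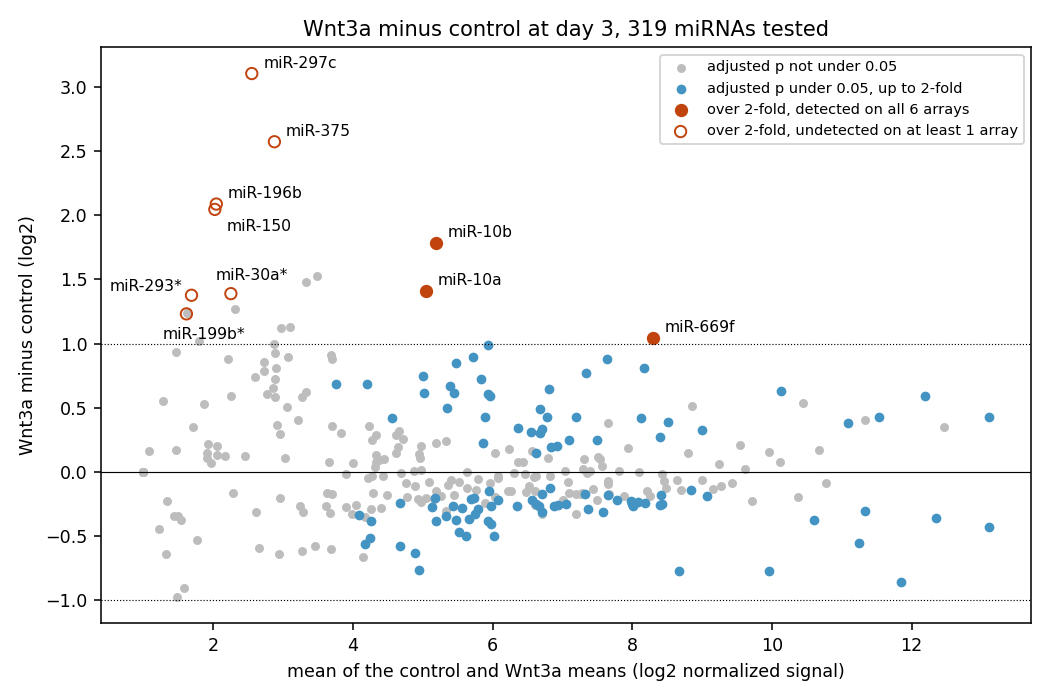
Log2 difference, Wnt3a minus control at day 3, against the mean of both group means (log2 normalized signal) for the 319 miRNAs tested, each point 1 miRNA. The 10 labelled miRNAs passed the 2-fold threshold with undetected arrays at the floor, and 3 of them, shown filled, were detected on all 6 arrays. Dotted lines mark a log2 difference of 1 either way.

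MiR-10b, miR-10a and miR-669f were the only ones of the 10 detected on all 6 arrays. For 5 of the other 7 the control arrays all lacked a detected signal, so that only a bound on the fold can be given. MiR-297c was at the floor on all 3 control arrays and at 3.95, 4.19 and 4.17 on the Wnt3a arrays (adjusted p = 0.00767), at least 3.24-fold higher. MiR-196b was at the floor on the control arrays and at 3.20, 3.02 and 3.04 on the Wnt3a arrays (adjusted p = 0.00622), at least 1.60-fold higher. MiR-150, a miRNA known from lymphocytes, was likewise undetected in control and at 3.02, 3.103 and 3.02 in Wnt3a (adjusted p = 2.05e-05), at least 1.55-fold higher. Each of the 3 was thus detected on every Wnt3a array and on 0 control arrays. Each bound sets the Wnt3a mean against the mean of the lowest detected levels of the control arrays, whose signals were 3.77, 11.3 and 3.53. On control replicate 2 that level, 3.49 on the log2 scale, lay above the Wnt3a levels of miR-150 and miR-196b. That array alone therefore bounds neither. With all control arrays at the floor, the p-values here describe a distance to the floor and not a measured difference. MiR-293* (2.25, 2.63 and 2.25 in Wnt3a, undetected in control, adjusted p = 1.12e-04) lay too near that limit for a fold. MiR-150, miR-196b and miR-293* did not pass with quantile normalization of log2 signals or a floor of 8, miR-297c and miR-293* not after normexp with local backgrounds, and all but miR-150 not in 1 fit over all 39 arrays.

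MiR-375, which in adults marks pancreatic islets and gut endocrine cells, was detected on control replicate 3 only, at 2.77, and on every Wnt3a array, at 4.40, 3.71 and 4.37. Its log2 difference with undetected arrays at the floor was 2.57 (adjusted p = 0.00151), and on the shared slide alone 2.28, which did not pass (adjusted p = 0.094). MiR-30a* was at 1, 1 and 2.67 in control and at 2.80, 3.18 and 2.86 in Wnt3a, a difference of 1.39 (adjusted p = 0.0250). MiR-199b* was undetected on all control arrays and at 2.71, 1 and 2.98 in Wnt3a (adjusted p = 0.0423), so that 1 Wnt3a array overlapped control and no fold can be given. Both depend on single arrays and settings: miR-30a* passed in 8 of 20 alternatives and 8 of 12 fits that left out 1 array, and miR-199b* in 7 of 20 and 1 of 12.

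**Figure D2:**
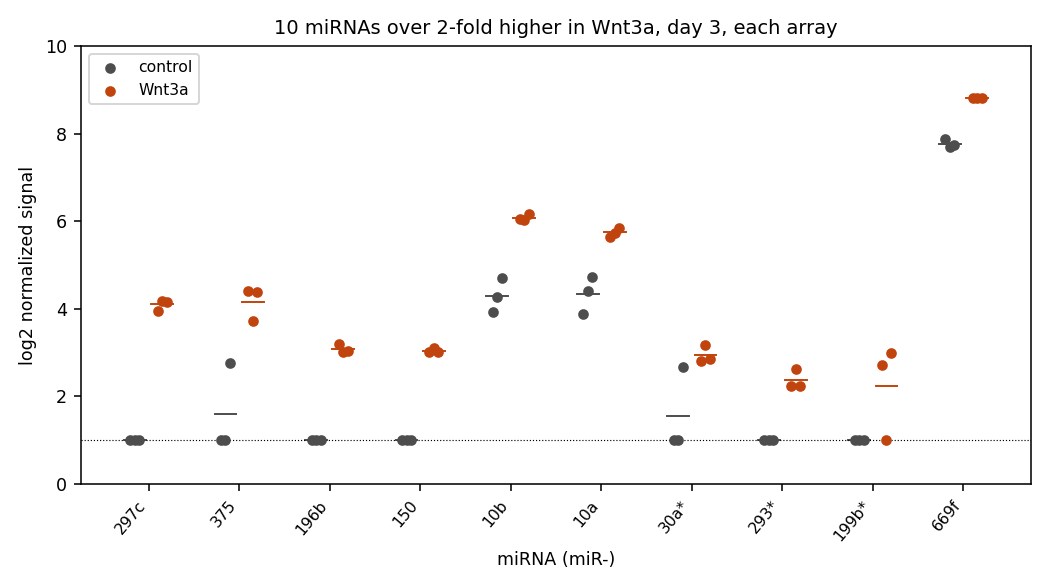
Log2 normalized signal on each array of the 10 miRNAs that passed the 2-fold threshold at day 3 with undetected arrays at the floor, with control in grey, Wnt3a in orange and group means as bars. Points on the dotted line at 1 are arrays on which the miRNA was undetected or at the floor. Wnt3a and control overlap only for miR-199b*.

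The miR-290 to miR-295 cluster rose in Wnt3a. Of its 14 miRNAs on the array 13 were tested, 11 rose, 0 fell and 2 did not pass, with 12 unadjusted and all of these higher, and the median log2 difference was 0.59 against −0.01 over all tested. The 14th, miR-291b-3p, was undetected on all day 3 arrays. Summed normalized signals of the cluster were 18241, 18222 and 19458 in control and 25889, 25614 and 25067 in Wnt3a. Every Wnt3a array lay above every control array for 12 of the members, the exception being miR-291b-5p (3.77, 1 and 3.64 in control, 3.45, 3.07 and 3.40 in Wnt3a). Of all tested, 16% rose and 20.4% had Wnt3a arrays all above control.

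Of the 3 members shown with the shared seed, miR-295 was at 11.75, 11.75 and 12.18 in control and at 12.48 on each Wnt3a array, 1.51-fold higher (log2 difference 0.59, 95% interval 0.37 to 0.82, adjusted p = 0.00157). MiR-291a-3p went from 10.98, 10.98 and 10.74 to 11.43, 11.27 and 11.13 (log2 difference 0.38, adjusted p = 0.0273). MiR-294 was at 12.89 on every control array and at 13.32 on every Wnt3a array, a difference of 0.43 (adjusted p = 1.31e-05). These identical values come from the normalization, which gives each rank the same value on all arrays. MiR-294 was at rank 2 on each control array and rank 1 on each Wnt3a array, and miR-1224, chosen after its values were seen, made the opposite step by −0.43. Scaled to the 75th percentile instead, miR-294 differed by 0.49 (adjusted p = 4.77e-04), miR-295 by 0.51 and miR-291a-3p by 0.73, while miR-294 differed by 0.00 after normexp correction.

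The other arms moved as well. MiR-290-3p was at 4.75, 4.57 and 4.82 in control and at 5.32, 5.26 and 5.40 in Wnt3a (log2 difference 0.61, 95% interval 0.45 to 0.78, adjusted p = 1.87e-04). MiR-294*, from the same hairpin as miR-294, was at 4.72, 4.29 and 4.89 in control and at 5.43, 5.35 and 5.35 in Wnt3a, 1.68-fold higher (log2 difference 0.74, adjusted p = 0.00261). MiR-292-5p differed by 0.61, miR-291a-5p by 0.59 and miR-295* by 0.69, each with all Wnt3a arrays above all control arrays and past the test. MiR-293 differed by 0.40 but did not pass (adjusted p = 0.0608), while with 75th percentile scaling it did (0.47, adjusted p = 1.03e-04). Under all 8 other scalings the cluster median stayed positive, from 0.18 to 0.88. The number that rose was 7 on the shared slide alone (median 0.53), 11 with slide as a block, 3 after normexp with local backgrounds, 10 after normexp with the median background and 4 in 1 fit over all 39 arrays.

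The miR-302/miR-367 cluster went the other way. All of its 8 miRNAs on the array were tested, 4 fell, 0 rose and 4 did not pass, and the median log2 difference was −0.30. At an unadjusted p under 0.05, 5 were lower and 0 higher. Of all tested, 19.1% fell at an adjusted p under 0.05. Summed normalized signals were 5994, 5860 and 6184 in control and 4384, 4555 and 4468 in Wnt3a. MiR-302c fell from 9.07, 9.002 and 9.07 to 8.29, 8.26 and 8.29, a log2 difference of −0.77 (95% interval −0.85 to −0.69, adjusted p = 9e-07). MiR-302b fell from 10.27, 10.27 and 10.47 to 9.57, 9.65 and 9.49, also −0.77 (95% interval −0.93 to −0.61, adjusted p = 5.21e-05). In both, each Wnt3a array lay below each control array, a condition of the list of largest decreases that holds them, and the 2 groups were 1.70-fold apart.

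MiR-302a* fell by 0.76 on the log2 scale (5.30, 5.24 and 5.43 in control, 4.57, 4.62 and 4.48 in Wnt3a, adjusted p = 1.34e-05) and miR-302a by 0.37 (adjusted p = 0.00421), or −0.69 with 75th percentile scaling. MiR-302d, with the seed of miR-302b, was at 10.38, 10.38 and 10.64 in control and 10.27 on each Wnt3a array, a difference of −0.20 that did not pass (adjusted p = 0.104), and −0.63 with 75th percentile scaling, which did (adjusted p = 1.54e-05). MiR-367 ranged from 9.16 to 10.16 in control and the groups overlapped. MiR-302b* and miR-302c* were undetected on all 6 arrays. The cluster median was negative under all 8 other scalings, −0.80 to −0.28, and 3 members fell on the shared slide alone with a median of −0.32, 4 with slide as a block, 2 after normexp with local backgrounds, 6 after normexp with the median background and 3 in the fit over all 39 arrays.

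**Figure D3:**
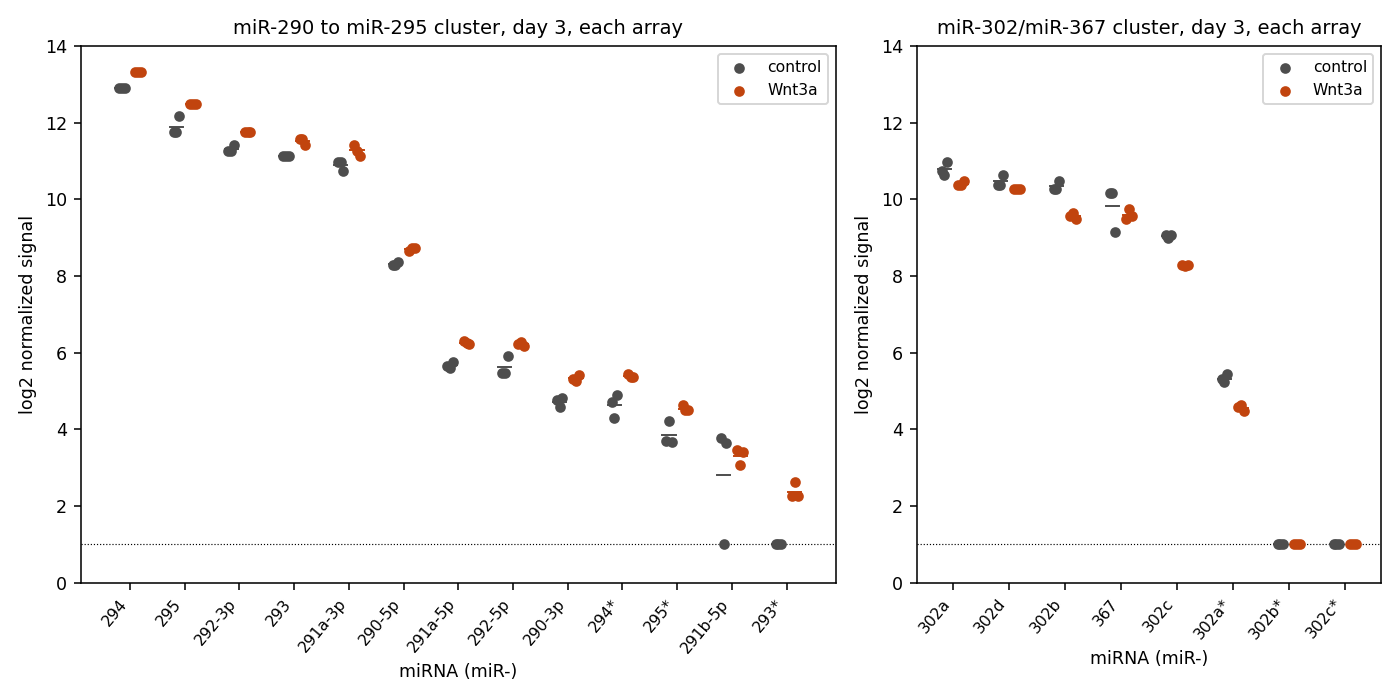
Log2 normalized signal on each array of the tested members of the miR-290 to miR-295 cluster (left) and the miR-302/miR-367 cluster (right) at day 3, control in grey and Wnt3a in orange, bars at the means and the dotted line at the floor. Wnt3a points lie above control for 12 of 13 members on the left, and below control for 5 of 8 on the right. Over all tested these shares were 20.4% and 26.3%.

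The largest differences among miRNAs detected on all 6 arrays were those of the Hox cluster miRNAs. MiR-10b was at 3.93, 4.26 and 4.70 in control and at 6.05, 6.03 and 6.17 in Wnt3a. That is 3.44-fold higher, with a log2 difference of 1.78 (95% interval 1.40 to 2.16, adjusted p = 5.21e-05). MiR-10a was at 3.88, 4.41 and 4.72 in control and at 5.65, 5.74 and 5.85 in Wnt3a, 2.65-fold higher (log2 difference 1.41, 95% interval 1.01 to 1.80, adjusted p = 2.42e-04). All 3 Wnt3a arrays lay above all 3 control arrays for both, by more than the spread of either group. Groups that do not overlap are a condition of the list of largest increases, which holds both. MiR-196b, given above, also rose, while miR-196a, miR-10a*, miR-10b*, miR-196a*, miR-615-3p and miR-615-5p were undetected on all 6 arrays. Of the 9 on the array 4 were tested, and miR-196a passed the detection filter through another day 3 group. Summed signals of the list were 30.01, 40.5 and 52.4 in control and 125.8, 126.9 and 137.8 in Wnt3a. On the shared slide alone, miR-10b differed by 1.60 (adjusted p = 0.011) and miR-10a by 1.18 (adjusted p = 0.013). The differences are the same with slide as a block, as both fits leave out control replicate 1. The size depends on low-signal treatment: quantile normalization of log2 signals gave 3.07 for miR-10b and 2.57 for miR-10a, and normexp with an offset of 50 gave 0.61 and 0.35, the latter not passing. Neither passed in the fit over all 39 arrays.

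The repeat miRNAs of the Sfmbt2 intron formed the other large group of increases. Of 39 on the array 21 were tested, 14 rose, 0 fell and 7 did not pass, with 16 unadjusted and all of these higher. Their median log2 difference was 0.77, and 16 had Wnt3a arrays that all lay above control. Of all tested, 16% rose and 20.4% had Wnt3a arrays all above control. Summed normalized signals were 1201, 1153 and 1213 in control and 2079, 2108 and 2056 in Wnt3a. Members have near-identical sequences and their probes may share signal, so they do not count as independent measurements.

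MiR-669f was at 7.88, 7.70 and 7.73 in control and at 8.82 on each Wnt3a array, 2.06-fold higher (log2 difference 1.04, 95% interval 0.89 to 1.20, adjusted p = 5.44e-06). MiR-669b was at 5.63, 5.58 and 5.12 in control and at 6.46, 6.44 and 6.39 in Wnt3a (0.99, adjusted p = 2.44e-04). MiR-467e was at 5.29, 5.29 and 5.26 in control and at 6.19, 6.21 and 6.12 in Wnt3a (0.89, adjusted p = 9e-07). In all 3 the Wnt3a arrays lay above every control array, which is a condition of the list of largest increases that holds them. The widest control spread was that of miR-669b. MiR-669a (0.88), miR-467c (0.85), miR-466a-3p (0.81) and miR-467b (0.77) were likewise among the 10 largest increases detected on all 6 arrays. Members that did not pass included miR-467f at 0.22 and, with at least 1 control array at the floor, miR-466g at 1.02 and miR-466i at 0.90. Of these, miR-466g passed with 75th percentile scaling (1.04, adjusted p = 0.0237). The list median stayed positive under all 8 other scalings (0.15 to 1.01). The number that rose was 11 on the shared slide alone, 13 with slide as a block, 11 in the fit over all 39 arrays and 15 after normexp with the median background, but 0 after normexp with local backgrounds.

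The Dlk1-Dio3 cluster showed small and widespread decreases. Of 70 miRNAs on the array 51 were tested, 25 fell, 0 rose and 26 did not pass, with 28 unadjusted and all of these lower. The median was −0.21 and 28 had Wnt3a arrays all below control. Of all tested, 19.1% fell and 26.3% had Wnt3a arrays all below control. Summed normalized signals were 8600, 8547 and 8866 in control and 7683, 7851 and 7677 in Wnt3a. MiR-134 was at 6.19, 6.12 and 6.21 in control and at 5.78, 5.81 and 5.72 in Wnt3a (−0.40, adjusted p = 0.00273), and miR-127 at 9.16, 9.13 and 9.22 in control and at 8.94, 9.002 and 9.002 in Wnt3a (−0.19, adjusted p = 0.00716). Both show groups that do not overlap at differences under 1.4-fold. MiR-496 had the largest drop of those passing (−0.56, adjusted p = 0.0254), but passed in only 12 of 21 alternatives and 8 of 12 fits that left out 1 array, and not with slide as a block, and miR-494, the brightest member, differed by −0.08 (adjusted p = 0.277). With no scaling 0 members passed and the median was 0.01 against 0.21 over all tested, so that the cluster still lay below the rest, and with the 75th percentile over detected miRNAs 22 fell with a median of −0.19. The count was 10 without Wnt3a replicate 3, 16 without Wnt3a replicate 1 or control replicate 3, 6 on the shared slide alone, 19 with slide as a block, 0 in the fit over all 39 arrays and, after normexp, 0 with local and 16 with median backgrounds.

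Outside these clusters, the 10 largest decreases detected on all 6 arrays held miR-92a, miR-129-3p, miR-452, miR-709, miR-877* and miR-1896. MiR-92a had the largest, from 12.18, 12.18 and 12.48 to 11.27, 11.43 and 11.59 (−0.85, adjusted p = 1.87e-04). It rests on ranks near the top, where neighbouring values lie far apart: the difference was −0.01 with 75th percentile scaling (adjusted p = 0.930) and 0.20 with no scaling, where the median of all tested was 0.21. MiR-709, at −0.56, was at −0.12 with 75th percentile scaling and did not pass (adjusted p = 0.274). MiR-129-3p was at 5.12, 5.10 and 5.40 in control and at 4.53, 4.60 and 4.60 in Wnt3a (−0.63, adjusted p = 0.00325). MiR-452 went from 5.07, 4.97 and 4.84 to 4.31, 4.43 and 4.41 (−0.57, adjusted p = 7.15e-04). Both kept their sign in all alternatives run but did not pass with no scaling or in the fit over all 39 arrays, nor miR-452 after normexp with local backgrounds. MiR-1896 differed by −0.50 and miR-877* by −0.52, with all 3 losses, and miR-877* also did not pass with 75th percentile scaling (adjusted p = 0.115) or without Wnt3a replicate 3.

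In the miR-17-92 clusters and their paralogs, known for promoting proliferation, 18 of 20 miRNAs were tested and 3 fell (miR-92a, miR-20b by 0.36 and miR-20a by 0.30), with a median of −0.04. That is no larger a share than the 19.1% that fell among all tested. Under 75th percentile scaling miR-20a and miR-20b differed by 0.08 and 0.07, so their direction is not settled. MiR-17 was at 8.43, 8.48 and 8.40 in control and at 8.48, 8.36 and 8.43 in Wnt3a, and the groups overlapped.

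The miR-200 family, which represses ZEB factors and holds cells epithelial, had 3 of 5 tested members higher, beside 16% of all tested. MiR-200a was at 5.74, 5.76 and 5.53 in control and at 6.10, 6.12 and 6.10 in Wnt3a (0.43, adjusted p = 0.00347), and miR-200b and miR-200c differed by 0.25 and 0.23. MiR-141 (0.36) and miR-429 (0.16) did not pass, and 4 of the 9 on the array were undetected on all 6 arrays. The family median of 0.25 stayed positive under all 8 other scalings, but 0 members passed after normexp with local backgrounds or in the fit over all 39 arrays.

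Among the remaining families, increases passed for miR-23a and miR-27a (each 0.43), which come from 1 precursor transcript, while miR-23b and miR-27b from its paralog differed by −0.03 and 0.08. MiR-34a, a target of p53, rose by 0.32 from 8.82, 8.82 and 8.87 to 9.16 on each Wnt3a array (adjusted p = 4.56e-04). MiR-221 fell by 0.50, from 6.14, 6.30 and 6.39 to 5.76, 5.78 and 5.80 (adjusted p = 7.15e-04). All 4 kept their sign under the 8 other scalings. Further passing members were miR-148a (0.31), miR-322 of the miR-15/miR-16 group (0.25), miR-96 (0.27), miR-30a, miR-30b and miR-30e (0.20, 0.15 and 0.34) beside miR-30a*, and miR-100, miR-125b-5p and miR-125a-3p (0.42, 0.20 and −0.26). Of these miR-100 (adjusted p = 0.123), miR-125b-5p (adjusted p = 0.0631), miR-30e and miR-30a* (each adjusted p = 0.0838) did not pass with 75th percentile scaling, and miR-30b changed sign, to −0.004 with the 75th percentile over all miRNAs.

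The let-7 family, which rises as pluripotent cells differentiate, had 16 miRNAs on the array and 6 tested, with 0 passing in limma and 1 at an unadjusted p under 0.05, let-7e. Let-7a was at 3.86, 4.31 and 4.68 in control and at 4.49, 3.95 and 4.64 in Wnt3a (0.08, adjusted p = 0.830). The miR-181, miR-130/miR-301 and miR-29 families had 4, 5 and 3 members tested, 0 passing in limma and 0 unadjusted.

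**Figure D4:**
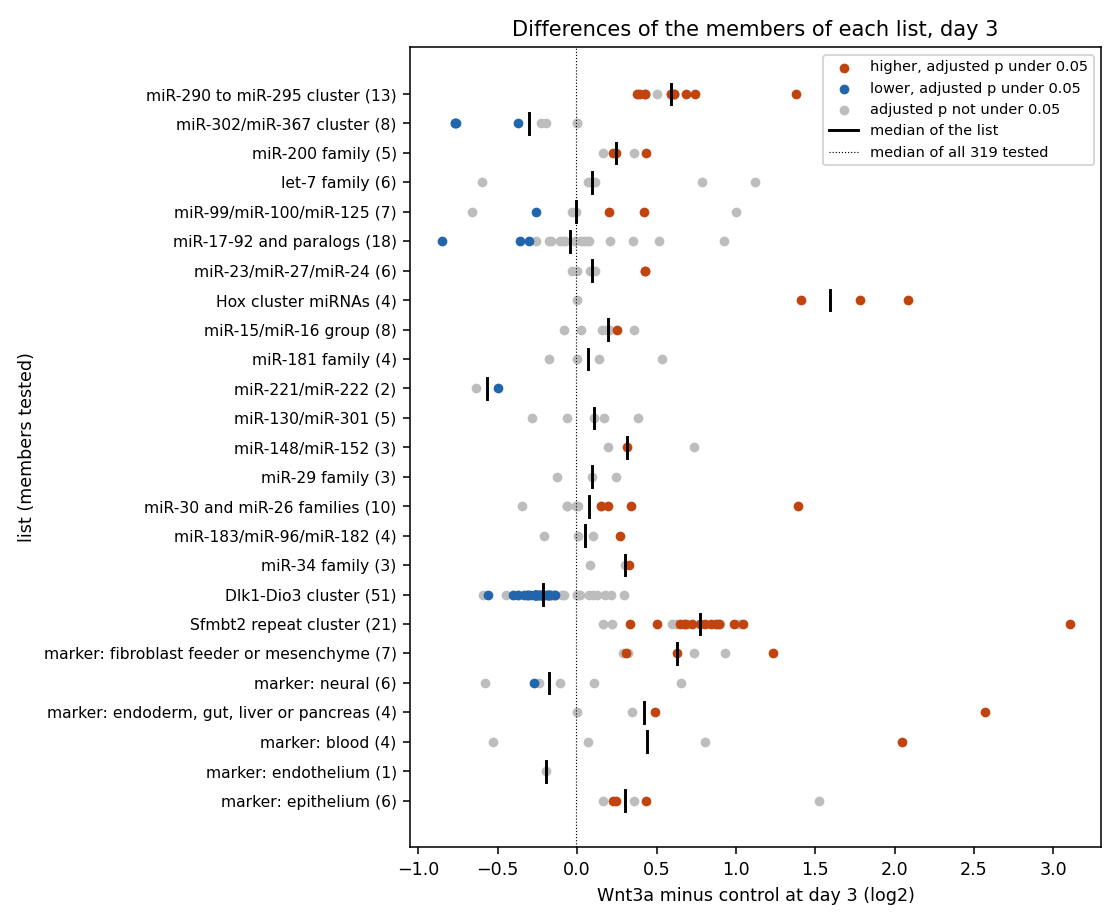
Log2 difference, Wnt3a minus control at day 3, of each tested member of each list, with the number tested in brackets, colour for direction where the adjusted p is under 0.05, and a bar at the list's median. The Sfmbt2 repeats (0.77), the miR-290 to miR-295 cluster (0.59) and the Hox miRNAs lie to the right and the Dlk1-Dio3 (−0.21) and miR-302/miR-367 (−0.30) clusters to the left. List positions are to be read against the median of all tested, −0.01 here, which moves with the scaling. Members undetected on some arrays enter at the floor.

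Lists of miRNAs known from other cell types were read on the same arrays, where 16% of all tested rose and 19.1% fell. Of the pluripotency clusters, 11 of 14 and 6 of 8 miRNAs on the array were detected on all 6 arrays. Of 17 fibroblast feeder or mesenchyme miRNAs 7 were tested and 3 rose: miR-21, miR-22 (0.31) and miR-199b*. MiR-21, the brightest of the list, was at 9.65, 9.74 and 10.04 in control and at 10.47, 10.47 and 10.38 in Wnt3a (0.63, adjusted p = 0.00121), or 0.32 higher with 75th percentile scaling, which passed as well. Summed signals of the list were 950, 988 and 1199 in control and 1612, 1594 and 1520 in Wnt3a. MiR-143, miR-145, miR-199a-5p and miR-214, defining miRNAs of fibroblasts, were undetected on all 6 arrays, and their part in the result was not tested. MiR-199a-3p was at 4.60, 4.15 and 4.66 in control and at 4.72, 4.75 and 4.81 in Wnt3a (adjusted p = 0.691).

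Endoderm, gut, liver or pancreas miRNAs numbered 11, of which 4 were tested and 2 rose: miR-375, given above, and miR-7a, the brightest, which was at 6.52, 6.37 and 6.43 in control and at 6.90, 6.86 and 7.03 in Wnt3a (0.49, adjusted p = 5e-04). Their sums were 91.5, 82.5 and 99.1 in control and 146, 129 and 156 in Wnt3a. MiR-122, miR-192, miR-194, miR-215, miR-216a, miR-216b and miR-217 were undetected on all 6 arrays. Of 9 neural miRNAs 6 were tested and 1 fell, miR-9 by 0.27 (adjusted p = 0.0111), which did not pass with 75th percentile scaling (−0.18, adjusted p = 0.0639), and the sums were 282, 286 and 230 in control and 239, 246 and 265 in Wnt3a with miR-219 the brightest. MiR-137 and miR-138 were undetected.

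Of 9 blood miRNAs 4 were tested and miR-150 alone rose, with sums of 27.1, 0 and 22.9 in control and 23.4, 19.1 and 29.1 in Wnt3a, the brightest being miR-155, and miR-142-3p, miR-144 and miR-451 undetected. All 8 muscle miRNAs were undetected, so that their sums were 0. For endothelium, miR-126-3p was at 4.70, 4.95 and 4.95 in control and at 4.64, 4.68 and 4.68 in Wnt3a (adjusted p = 0.129), with sums of 26.01, 30.9 and 30.9 against 24.99, 25.7 and 25.7. Of 12 epithelium miRNAs 6 were tested and 3 rose, the members of the miR-200 family named above, and their sums were 368.7, 375.2 and 399.6 in control and 468.3, 466.9 and 453.9 in Wnt3a with miR-200b the brightest. MiR-205 was at 3.20, 1 and 3.99 in control and at 4.23, 4.21 and 4.31 in Wnt3a and did not pass (adjusted p = 0.0727). The part of these cell types in the differences was not tested.

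Other miRNAs that the study names, a list chosen by its authors on these samples, mostly did not pass for Wnt3a alone at day 3. The authors' rule for synergistic miRNAs excluded those significantly changed by Wnt3a alone. For miRNAs picked by that rule at day 3, such as miR-222, miR-338-5p and miR-340-3p, this outcome was therefore part of the selection. MiR-335-3p was at 7.82, 7.67 and 7.94 in control and at 7.91, 7.82 and 7.73 in Wnt3a (0.01, adjusted p = 0.983), and miR-335-5p at 8.72 on each control array and 8.87 on each Wnt3a array (0.15, adjusted p = 0.202). Let-7e was at 3.13, 1 and 3.103 in control and at 3.23, 3.37 and 3.99 in Wnt3a (1.12, adjusted p = 0.106), a size set by 1 undetected control array. MiR-222 (−0.64), miR-338-5p (0.17), miR-340-3p (−0.27), miR-340-5p (0.26), miR-125a-5p (−0.03) and miR-301b (0.11) did not pass either. MiR-218 fell by 0.21 (adjusted p = 0.0164) from 5.80, 5.90 and 5.81 to 5.59, 5.59 and 5.71, and differed by −0.10 with 75th percentile scaling, which did not pass (adjusted p = 0.246). MiR-181c, miR-196a, miR-24-2* and miR-546 were undetected on all 6 arrays.

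Wnt3a and control were also cultured for 1 and 5 days, on other arrays. At those days each group was on a slide without the other group, and what links the slides is Activin A, with 2 of its arrays beside control and 1 beside Wnt3a. At day 1, 48 of 238 tested miRNAs passed (20.2%), 24 higher (10.1%) and 24 lower (10.1%), and at day 5 it was 31 of 358 (8.66%), 20 higher (5.59%) and 11 lower (3.07%). With slide as a block, a fit chosen after seeing the data, 1 passed at day 1 (0.42%) and 2 at day 5 (0.559%). The 1 at day 1 was miR-150, with a log2 difference of 1.27 in that fit (adjusted p = 5.75e-04). MiR-150 also passed higher at day 1 without the block (adjusted p = 3.66e-06), so its increase was not limited to day 3. Whether the day 1 value is a measured size or a distance to the floor was not tested. The day 5 counts hang on Wnt3a replicate 1 of that day: without it 35.5% passed, 59 higher (16.5%) and 68 lower (19%), or 31 (8.66%) with slide as a block. Nothing in the labels sets that array apart, so leaving it out here and below is a choice made from the data. The estimate of the slide term hangs on 1 array a day, and without it slide and Wnt3a are not separated at days 1 and 5.

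MiR-10a was at 4.62, 4.66 and 4.60 in control and at 4.64, 5.83 and 6.40 in Wnt3a at day 5, a difference of 1.00 (adjusted p = 0.146). Without Wnt3a replicate 1 it was 1.49 (adjusted p = 5.4e-04), and with slide as a block as well 1.14 (adjusted p = 0.0401). At day 1 it was −0.11 (adjusted p = 0.650). MiR-10b differed by 0.75 at day 5 (adjusted p = 0.178), by 1.14 without that array (adjusted p = 0.00183) and by 1.10 with slide as a block as well (adjusted p = 0.0682). The same array, and for miR-10b the slide term, thus decide whether either passes at day 5.

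Repeat miRNAs passed higher at day 5 for 5 of 21 tested, or 2 with slide as a block, and without Wnt3a replicate 1 for 15, or 10 with the block. At day 1 it was 0 of 20. MiR-669b differed by 1.45 at day 5 (adjusted p = 0.00116) and did not pass with the block (1.57, adjusted p = 0.099). In the miR-302/miR-367 cluster 3 of 5 passed higher at day 1, with a median of 0.41 opposite in sign to day 3, or 0 with the block (median 0.33). Of these miR-302b differed by 0.68 (adjusted p = 0.00221), and by 0.33 with slide as a block, which did not pass (adjusted p = 0.0707). At day 5 miR-302c differed by −0.68 (adjusted p = 0.00161), unchanged in size by the block but not passing with it (adjusted p = 0.132). In that cluster 2 of 8 passed lower at day 5 and 5 without Wnt3a replicate 1, or 0 and 2 with the block. In the miR-290 to miR-295 cluster 5 of 13 passed higher at day 1 and 2 at day 5, with medians of 0.22 and 0.52, and 0 on either day with slide as a block, with medians of 0.03 and 0.65. Without Wnt3a day 5 replicate 1 it was 5 at day 5, or 1 with the block. In the Dlk1-Dio3 cluster 11 of 35 passed lower and 0 higher at day 1, or 0 with the block. At day 5 it was 2 lower and 2 higher of 54, or 0 with the block, counts that are not one-sided as at day 3, although 0 of 52 passed the test of the difference between those days. Without Wnt3a replicate 1 it was 12 lower and 4 higher, or 0 and 1 with the block.

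At 0.867%, 3 of 346 miRNAs passed the test of the difference between the day 3 and day 5 effects: miR-150 and miR-196b, both with a larger increase at day 3 (2, 0.578%), and miR-181c, with a larger one at day 5 (1, 0.289%). MiR-150 and miR-196b were undetected on all control arrays of day 3 and at or near the floor at day 5. Their differences are therefore distances to the floor and not measured sizes. With slide as a block and the Activin A arrays in the fit, miR-150 alone passed (1, 0.289%). Without Wnt3a day 5 replicate 1 and without the block, 24 passed.

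**Figure D5:**
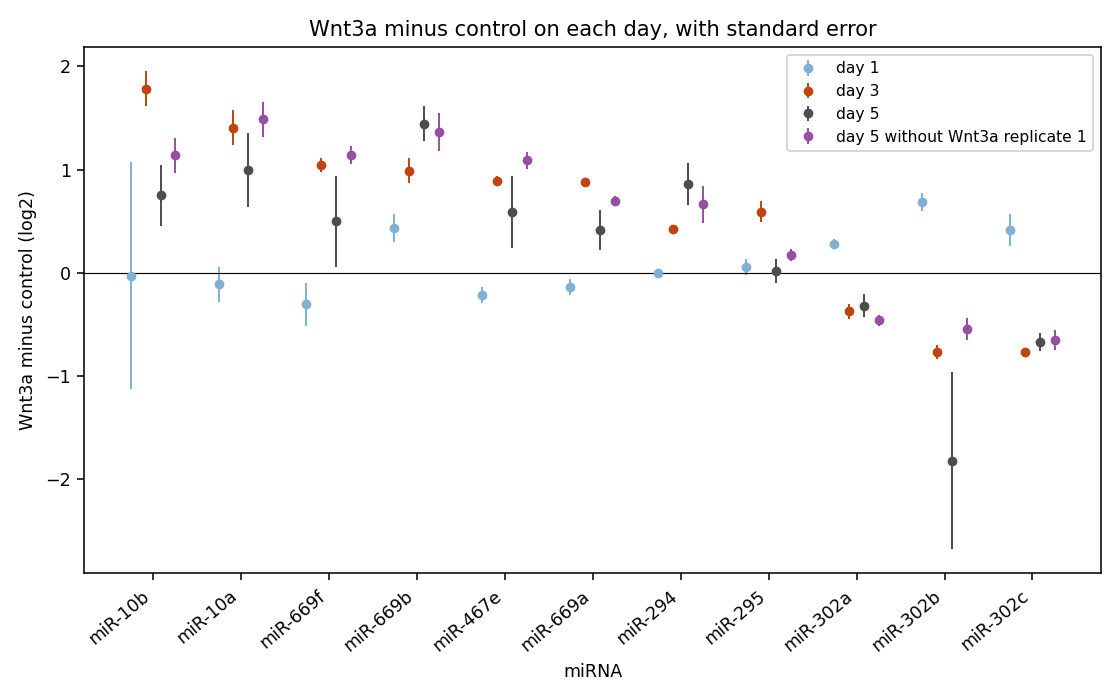
Log2 difference, Wnt3a minus control, with its standard error at days 1, 3 and 5 (3 arrays a group) for 11 miRNAs, and at day 5 without Wnt3a replicate 1. MiR-10b and miR-10a lie at −0.03 and −0.11 at day 1 and at 1.78 and 1.41 at day 3, and miR-302b at 0.68 at day 1 and −0.77 at day 3. The day 1 value of miR-10b is poorly determined, with a standard error of 2.11 in the fit with slide as a block. No slide term is fitted in the values shown.

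Whether the Wnt3a difference holds in the presence of Activin A was tested with the groups Activin A plus Wnt3a and Activin A of day 3. The deposited sources disagree about which arrays are which: in the authors' normalized table all 18 columns of these groups, over the 3 days, hold values of the other group's arrays, while the 21 columns of the remaining groups match their own. The values below follow the labels of the scanner files, each with its value under the exchanged naming, and Wnt3a against control is not touched by this. The arrays named Activin A plus Wnt3a were on a slide without any other day 3 array, and no group links that slide with those of the other day 3 groups. Slide therefore cannot be separated from the differences below, under either naming. The Wnt3a effect with Activin A differed from that without it for 73 of 319 miRNAs (22.9%) as labelled, higher with it for 36 (11.3%) and lower for 37 (11.6%). If exchanged these were 112 (35.1%), 63 (19.7%) and 49 (15.4%). Both namings take off the same Wnt3a minus control difference, so agreement between them is expected and is no second test. The clusters and miRNAs below were singled out by that same difference, so an opposite sign here is in part built in. As labelled, the difference between the effects was negative for 43 of the 51 miRNAs higher at day 3. It was positive for 59 of the 61 lower ones.

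In the miR-290 to miR-295 cluster the effect was lower with Activin A for 7 of 13 members as labelled and for 10 if exchanged, and higher for 0 under either naming. In the miR-302/miR-367 cluster it was higher for 5 of 8 and lower for 0 as labelled, and higher for 3 and lower for 1 if exchanged. Against control, 12 of 13 miR-290 to miR-295 members were higher with Activin A (median 1.16) and 12 with Activin A plus Wnt3a (1.35), as labelled. For the miR-302/miR-367 cluster these were 6 of 8 (0.50) and 8 of 8 (0.84), beside 83 and 88 of all 319 tested. The naming changes other counts more: the repeat miRNAs had a lower effect for 3 of 21 as labelled and 16 if exchanged, and the Dlk1-Dio3 cluster a higher one for 9 of 51 as labelled and 23 if exchanged, with 1 lower. MiR-294 was at 13.32 on all arrays of both Activin A groups, the top rank, which its difference of −0.43 between the effects reflects (adjusted p = 2.2e-04). MiR-302c had a Wnt3a effect higher by 0.93 with Activin A (adjusted p = 4.1e-06), or by 0.61 if exchanged (adjusted p = 1.65e-05), and miR-302b by 1.08 or 0.45. For miR-669f the effects differed by −0.72 (adjusted p = 0.00108), or by −1.37 if exchanged. For miR-10a the naming decides: the array levels were 3.32, 3.16 and 3.103 under the label Activin A and at the floor on all 3 arrays labelled Activin A plus Wnt3a, so that the effect differed by −3.60 (adjusted p = 1.13e-05) as labelled and by 0.78 (adjusted p = 0.0346) if exchanged. MiR-10b was at 3.34, 3.20 and 3.32 and at 4.70, 4.35 and 4.51 in the same order, and its effect differed by −0.55 (adjusted p = 0.124) or by −3.02. The paper describes miR-10a as lower with Activin A and lower still with Wnt3a added, the order under the scanner file labels. The naming itself was not tested further.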

How the data were processed

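MiRNA levels were read from 6 of 39 Agilent arrays, 3 for Wnt3a and 3 for control at day 3, grouped by the labels. The scanner output holds intensity values that the authors deposited without normalization between arrays. The scanner output, per the file headers, comes from Feature Extraction version 10.7.3.1, while the labels name 9.5.3.1. It subtracted local background and combined the probes of a miRNA into a total signal, set to 0.1 where undetected. The other deposited values used are flags of the same software, which mark detected miRNAs and outlier spots. A deposited table of log2 values, quantile normalized by the authors, served as an alternative only. Its floor and any centring stay unknown, and the column medians of the 6 arrays were 0.08, 0.29, 0.07, 0.05, 0.09 and 0.05.

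Total signals of all 650 miRNAs on the array (611 of mouse) were quantile normalized across the 39 arrays, values under 2 were set to 2 and log2 was taken. A miRNA entered the test if any day 3 group had 2 or more of its 3 arrays with detection, and the model ran over the 12 day 3 arrays with limma 3.58.1 in R 4.3.3, with p adjusted after Benjamini-Hochberg, and intervals are 95% intervals of that fit. The fit was tested on simulated data. Fold bounds are described beside their values. Named miRNAs are those past a 2-fold threshold (undetected arrays at the floor) at an adjusted p under 0.05, the 10 largest increases and 10 largest decreases among those detected on all 6 arrays with groups that do not overlap, those the study names, and members of the lists. Members and lists were chosen with earlier results of these data known. Array number limits the precision. Sequences are from RefSeq (GRCm38.p6). Alternatives covered scaling, background, floor, detection filter, slide, replicate block, test and each array left out.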

Additional observations from a re-analysis of the deposited data

Results flagged for a closer look

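The effect of Wnt3a at day 3 differed with and without Activin A for 73 of 319 miRNAs (limma, adjusted p under 0.05), with the arrays of the Activin A groups named as in the scanner files. The Activin A plus Wnt3a arrays were alone on their slide among those of day 3, so the 73 cannot be separated from slide. Of the 10 miRNAs that passed the 2-fold threshold with Wnt3a alone, 4 were among them. The 10 were picked by the same Wnt3a minus control difference that this test takes off, so a negative value is in part built in. The log2 difference between the effects was −3.60 for miR-10a, −1.80 for miR-150 (adjusted p = 0.00102), −1.20 for miR-293* (adjusted p = 0.0047) and −0.72 for miR-669f. Under the exchanged naming it was 0.78, −2.29, −1.55 and −1.37. MiR-150 and miR-293* were undetected on all 3 control arrays and miR-10a on all 3 arrays labelled Activin A plus Wnt3a, so these 3 values rest on the floor and are not measured sizes.

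The effect differed between day 3 and day 5 for 3 of 346 miRNAs. It was larger at day 3 by 2.04 for miR-150 (adjusted p = 3.19e-07) and by 2.04 for miR-196b (adjusted p = 8.72e-07), with undetected arrays at the floor. MiR-150 was undetected on all 6 arrays of day 5 and miR-196b was at 1.10, 1 and 1.04 in Wnt3a and at the floor in control there. Both were undetected on all control arrays of day 3 too, so these values are distances to the floor and not measured sizes. With slide as a block, linked at day 5 by Activin A arrays, only 1 passed: miR-150 at 2.04 (adjusted p = 2.58e-07), while miR-196b was at 2.21 (adjusted p = 0.720).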

How the results depend on the processing

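The 10 miRNAs past 2-fold (undetected arrays at the floor) at an adjusted p under 0.05 became 19 with quantile normalization of log2 signals (13 higher, 6 lower), 18 with no scaling, 1 after normexp correction and 1 after normexp with the median background of each array (added after seeing the data), both miR-291a-3p so that 0 of the 10 remained, 5 with a floor of 8, 3 among miRNAs detected on all 6 arrays and 6 in 1 fit over all 39 arrays. The normexp offset of 50 shrinks low signals, and the first normexp fit put the background mean at −743 on Wnt3a replicate 1 and −427 on control replicate 1 against 8.76 to 12.5 on the other 4 arrays. The 112 at an adjusted p under 0.05 became 54 with no scaling, 12 after normexp correction (105 in its median background form), 31 in the 39-array fit, 71 on the shared slide alone (fewer arrays), 70 with a plain two-sample test and 209 with the one-way test that the study's methods name, which asks about any of 4 groups (5 more passed it with a Wnt3a minus control difference of exactly 0 and are not counted). The cause of the other shifts was not tested. Leaving out 1 array gave 9 to 11 and 77 to 111. MiR-10a passed in 19 of 21 alternatives, miR-10b in 20 and miR-669f in 20, and each in all 12 fits without 1 array. The 73 that differed with Activin A were 23 in the 39-array fit and 112 with the groups exchanged (added after seeing the data), and 50 to 87 without 1 array. The 3 that differed between days were 17 in the 39-array fit, 1 with slide as a fixed block and Activin A arrays (added after seeing the data) and 3 to 24 without 1 array. Correlations of same-numbered deviations were −0.26, 0.27 and 0.13, and those of differently numbered ones ran from −0.30 to 0.20. With 3 arrays a group these cannot show whether the numbers pair the arrays. With replicate number as a block the counts were 10, 104, 58 and 3. Where at least 1 of the 2 fits passed, signs turned for miR-20a, miR-20b and miR-30b, as given above, and for others. Among these were miR-335-3p (−0.22 with the 75th percentile over all miRNAs), with no scaling, which moves the median of all tested to 0.21, miR-92a (0.20), miR-709 (0.10) and miR-218 (0.12), after normexp miR-30a* (−0.0031) and miR-218 (0.0262), and with its median background form miR-30a* (−0.0230), miR-218 (0.0161) and miR-125a-5p (0.11, adjusted p = 0.0427). Without a pass in either, signs also turned, among others for miR-338-5p (lowest −0.09), miR-340-3p (highest 0.19), miR-301b (lowest −0.08) and miR-125a-5p (highest 0.28). Signal over background limits what can be said of miRNAs near the lowest detected level.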

Other observations

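The arrays also carry 39 probes' worth of viral miRNAs, which no comparison used. The software detected 7, 4 and 6 of them on the control arrays of day 3 and 6, 4 and 7 on the Wnt3a arrays, and the highest log2 level was 7.98, 8.01 and 8.07 in control and 7.94, 7.80 and 7.88 in Wnt3a.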
